A study of Mus musculus with 4 samples.

Results

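The response of the wild-type mouse heart to myocardial infarction is described here across all nuclei and within the main cell classes. It was taken as the difference between 1 single-nucleus RNA library from infarcted wild-type heart (WT 3dpMI) and 1 from wild-type heart at homeostasis (WT homeostasis). Nuclei with at least 500 UMIs (unique molecular identifiers, which count captured RNA molecules), at least 300 genes and at most 10% of UMIs from mitochondrially coded genes were kept. These were 4381 nuclei at homeostasis and 9149 after infarction, 13530 of the 28128 nuclei kept in the series.

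The WT homeostasis library came from wild-type mouse heart with the treatment labelled homeostasis. The WT 3dpMI library came from wild-type mouse heart 3 days after myocardial infarction, the death of heart muscle that follows a blocked coronary artery. The series has 2 further libraries, from hearts with the edited Vegfa allele Q150X in the same conditions, which serve here only as a second pair in which a value can be looked up. Nuclei were captured with the 10x Genomics Chromium 5′ kit. Strain, age, sex, the number of hearts behind a library, the region of heart sampled, and any sham operation on the homeostasis hearts are details that the sources used here do not give.

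With 1 library a side there is no replicate error. Every interval below is a 95% interval for counting error alone, and no test between conditions was possible. A difference between these libraries therefore cannot be told apart from a difference between any 2 preparations of heart nuclei.

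An infarct kills cardiomyocytes, the contracting cells of the heart. The days that follow are an inflammatory and early repair phase in which monocytes enter from the blood and clear debris, endothelial cells and fibroblasts divide, and fibroblasts turn from the upkeep of a resting matrix to the laying down of a provisional one. Surviving cardiomyocytes take up a stress programme that includes natriuretic peptides and other genes of the fetal heart. Nuclear RNA holds many unspliced transcripts and little RNA of the cytoplasm or of mitochondria, so mitochondrially coded reads in nuclei come largely from carry-over.

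The libraries differed in depth as well as in condition. WT homeostasis held 5868921 UMIs with a median of 934 UMIs and 582 genes per nucleus. WT 3dpMI held 30389318 UMIs with a median of 2131 UMIs and 1274 genes. The median mitochondrial share of a nucleus was 0.856% at homeostasis and 0.159% after infarction. The 2 wild-type libraries shared 54 barcodes, 1.23% and 0.59% of theirs. All 12 cardiomyocyte markers were detected in both libraries, as were all 14 macrophage markers, while 3 of 6 neutrophil markers were at 0 at homeostasis and none after infarction.

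Cardiomyocytes made up a much smaller share of nuclei after infarction, and macrophages or monocytes, endothelial cells and pericytes a larger one. Nuclei were assigned to 1 of 13 classes by marker genes, which placed 3731 of 4381 nuclei at homeostasis (85.2%) and 7342 of 9149 after infarction (80.3%). Cardiomyocyte nuclei were 1680 of 4381 at homeostasis, 38.4% (interval 36.9% to 39.8%), and 1181 of 9149 after infarction, 12.9% (12.2% to 13.6%). That is a share ratio of 0.337 (0.315 to 0.359). In a nucleus suspension a smaller share cannot be told apart from poorer recovery of that class.

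Macrophage or monocyte nuclei were 60 of 4381 (1.37%) and 1149 of 9149 (12.6%), a share ratio of 9.17 (7.09 to 11.9). This was the largest ratio among the 5 classes with at least 50 nuclei in each library. Endothelial nuclei, vascular and endocardial together, were 14.5% and 26.6% of nuclei (ratio 1.84, 1.70 to 1.99). Pericytes, the contractile cells wrapped around capillaries, were 2.42% and 4.66% (ratio 1.92, 1.56 to 2.37). Fibroblasts were 26.6% and 22.5% (ratio 0.846, 0.795 to 0.901), and this small decrease turned into a ratio of 1.43 when only nuclei with at least 1000 UMIs were kept. The depth gap can move these shares, since a nucleus at the UMI minimum is easier to lose from 1 class than from another. The median UMIs of a cardiomyocyte nucleus were 1514 at homeostasis and 6273 after infarction, against 802.5 and 1422 for an endothelial nucleus.

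**Figure D1:**
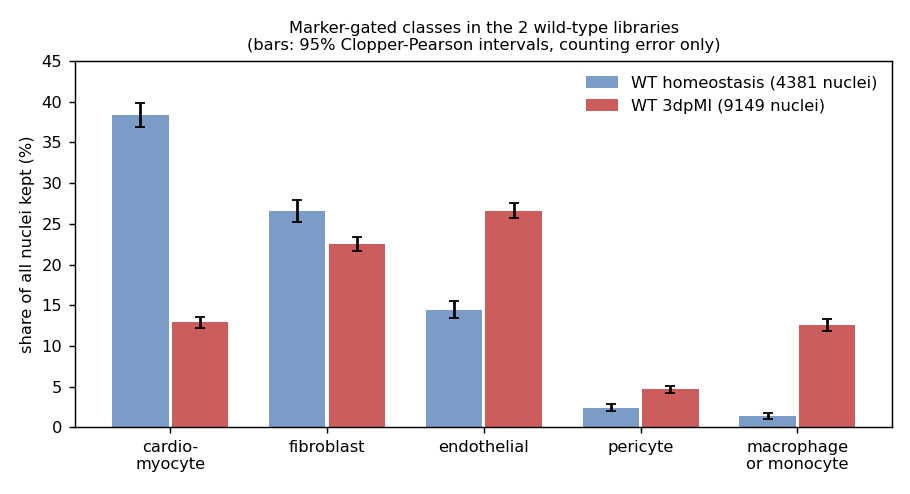
Share of all kept nuclei (%, vertical axis) assigned to each of the 5 main marker-gated classes in WT homeostasis (4381 nuclei) and WT 3dpMI (9149 nuclei), with 95% Clopper-Pearson intervals as error bars. Cardiomyocyte nuclei go from 38.4% to 12.9% and macrophage or monocyte nuclei from 1.37% to 12.6%.

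Some classes were too small to follow. No neutrophil nucleus was assigned among 4381 at homeostasis, where the interval reaches up to a share of 0.0842%, and 6 were assigned after infarction. T or NK nuclei numbered 9 and 16, B nuclei 15 and 10, lymphatic endothelial nuclei 16 and 32, and smooth muscle nuclei 40 and 26. Nuclei that held markers of 2 classes at similar strength stayed unassigned and were 8.88% at homeostasis and 17.5% after infarction.

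Across all nuclei, most large differences were increases. Of 14827 genes with enough counts to be measured (an expected count of at least 10 in each library), 4388 were at least 2-fold higher after infarction with the interval above 1, which is 29.6%. Another 569 genes, 3.84%, were at least 2-fold lower. Increases were 88.5% of these calls. Values are CPM, UMIs scaled to the same total for each library or class, so an increase in one gene lowers all others. The median gene had a log2 ratio of 0.57. Measured against that median, 2181 genes were higher and 1496 lower, and increases were 59.3% of calls.

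The largest increases included genes of macrophages and of activated fibroblasts. Spp1, which encodes the matrix protein osteopontin, had 0 UMIs at homeostasis and 2567 UMIs after infarction (84.5 CPM), at least 165-fold higher. Tnc, which encodes the matricellular protein tenascin-C, went from 2.05 to 414 CPM, a ratio of 202 (116 to 392). Both genes are scarce in resting adult heart, as they were in the homeostasis library here.

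Timp1, an inhibitor of matrix metalloproteinases, went from 0.682 to 55.8 CPM, a ratio of 81.8 (31.9 to 301). Gpnmb, a glycoprotein of lipid-laden and repair macrophages, went from 0.682 to 54.6 CPM, a ratio of 80.0 (31.2 to 294). The metalloprotease gene Adam8 went from 0.852 to 62.1 CPM (72.9, 31.2 to 225). These 3 genes had 4 or 5 UMIs at homeostasis, so their intervals are wide.

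Sirpb1c, a receptor gene of myeloid cells, had 1 UMI at homeostasis and 32.6 CPM after infarction, a ratio of 191 (34.3 to 7567). Cd300lf, another myeloid receptor gene, had 0 UMIs and then 34.4 CPM, at least 67.2-fold higher. Cthrc1, a secreted protein of activated fibroblasts, had 0 UMIs and then 30.9 CPM, at least 60.5-fold higher. Arg1, the arginase of repair macrophages, had 0 UMIs and then 18.0 CPM, at least 35.2-fold higher. Tnc, Cthrc1 and Timp1 had their highest level after infarction in fibroblast nuclei, and Spp1, Gpnmb, Adam8, Sirpb1c, Cd300lf and Arg1 in macrophage nuclei.

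The largest decreases lay in genes that cardiomyocyte nuclei held at homeostasis. Ppargc1a, the coactivator that drives mitochondrial biogenesis and fat oxidation, went from 1676 to 264 CPM, a ratio of 0.158 (0.153 to 0.162). Csdc2, an RNA-binding protein gene, went from 48.6 to 7.17 CPM (0.148, 0.123 to 0.177). Other decreases near the top of the ranking were Lncbate10 with a ratio of 0.0239, Dct with 0.0520, Adcy8 with 0.106, Abca16 with 0.109, Epha6 with 0.169, Rp1 with 0.170 and Tmem82 with 0.174. All but Abca16 were highest in cardiomyocyte nuclei at homeostasis.

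A few abundant transcripts carried much of the total. Malat1, a nuclear long noncoding RNA, made up 128742 CPM at homeostasis and 58329 CPM after infarction, a ratio of 0.453. Within classes its ratio was lowest in macrophage nuclei (0.437) and highest in cardiomyocyte nuclei (0.662). Ttn, which encodes the sarcomere spring titin, went from 26783 to 9617 CPM (0.359) across all nuclei, and from 45567 to 30428 CPM (0.668) within cardiomyocyte nuclei. Ryr2, the calcium release channel, went from 11915 to 5601 CPM (0.470) across all nuclei and had a ratio of 0.944 within cardiomyocyte nuclei. For Ttn and Ryr2 the all-nuclei decrease was thus larger than the decrease inside the class that makes the protein. Both are gating markers of cardiomyocyte nuclei, so the gate itself helps to hold up their level within that class. The comparison therefore cannot show how far their level changed inside cardiomyocytes, and no conclusion is drawn from it.

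**Figure D2:**
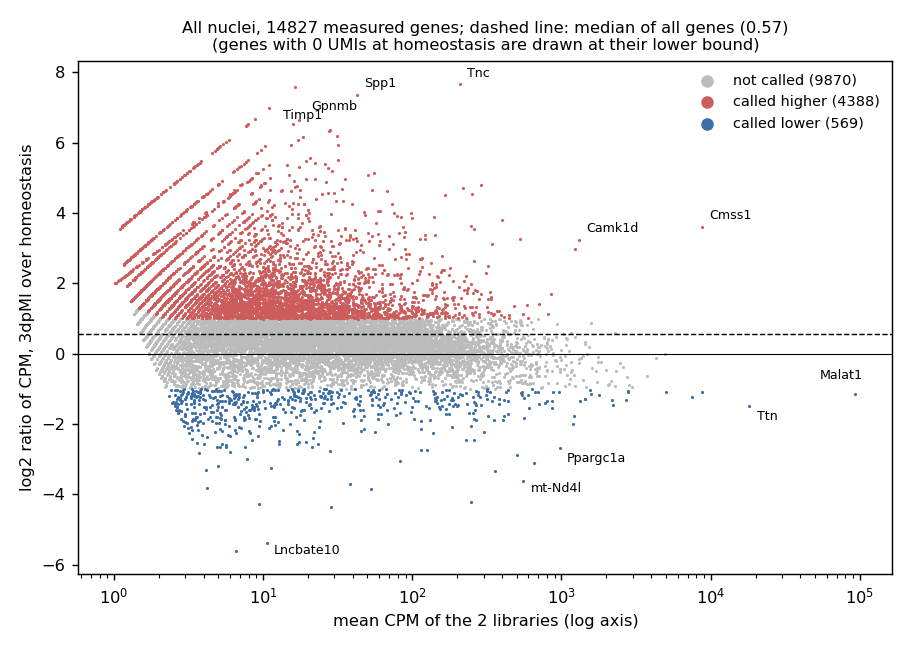
Log2 ratio of CPM, WT 3dpMI over WT homeostasis (vertical axis), against the mean CPM of the 2 libraries (horizontal log axis) for 14827 measured genes over all nuclei. Red points are the 4388 genes called higher, blue points the 569 called lower, and the dashed line is the median gene at 0.57. Rising diagonal streaks at the left are genes with 0 or few UMIs at homeostasis.

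How much of the all-nuclei change went with the mix of classes was worked out by arithmetic. The share of all UMIs from cardiomyocyte nuclei was 56.5% at homeostasis and 26.9% after infarction, while that of macrophage nuclei was 0.774% and 10.3% and that of fibroblast nuclei 18.5% and 27.7%. With the shares held at their homeostasis values and only the levels within classes allowed to differ, 2729 of the 4388 increases (62.2%) were still past 2-fold. Of the 569 decreases, 283 (49.7%) were. The median log2 ratio of the increases went from 1.61 to 1.18, and that of the decreases from -1.40 to -0.99.

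The class with the highest level was read after infarction for increases and at homeostasis for decreases. Shares by class over all measured genes are not given here, so the counts below do not set the called genes apart. Macrophage levels at homeostasis rest on 60 nuclei. Of the 4388 genes called higher, 2050 (46.7%) had their highest level after infarction in macrophage nuclei, 1042 (23.8%) in fibroblast nuclei, 711 (16.2%) in endothelial nuclei and 123 (2.80%) in cardiomyocyte nuclei. Of the 569 called lower, 345 (60.6%) were highest in cardiomyocyte nuclei at homeostasis, and only 79 of these were still past 2-fold at a fixed mix. Tnc kept a fixed-mix ratio of 141, Gpnmb of 30.6 and Adam8 of 28.4. Ppargc1a moved from 0.158 to 0.311. Levels within classes also hold free RNA from other classes. In cardiomyocyte nuclei Gpnmb and Adam8 were at 0.758 and 0.783 times the estimate of free RNA given below. Nuclei outside the 5 classes held 11.9% of UMIs at homeostasis and 16.3% after infarction. The part of free RNA and of these nuclei in the fixed-mix values was not tested.

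**Figure D3:**
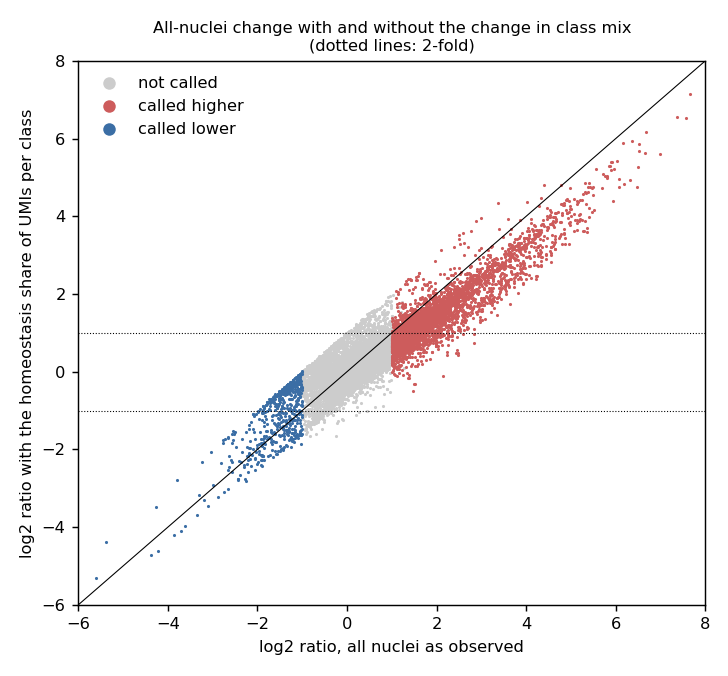
Log2 ratio over all nuclei as observed (horizontal axis) against the log2 ratio with each class held at its homeostasis share of UMIs (vertical axis), 1 point per measured gene. Red points called higher mostly lie below the diagonal and 62.2% stay above the upper dotted 2-fold line. Of the blue points called lower, 49.7% stay below the lower dotted line.

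Each class had its own set of differences. In cardiomyocyte nuclei 1987 of 11305 measured genes were called higher (17.6%) and 317 lower (2.8%). In fibroblast nuclei 2106 of 9974 were higher (21.1%) and 302 lower (3.03%). In endothelial nuclei 1059 of 7829 were higher (13.5%) and 176 lower (2.25%). Fewer genes could be measured in the smaller classes. Pericyte nuclei had 132 of 1752 genes higher (7.53%) and 38 lower (2.17%), and macrophage nuclei had 162 of 904 higher (17.9%) and 44 lower (4.87%). Median log2 ratios were 0.39, 0.33, 0.23, 0.11 and 0.17 in that order. Relative to its median gene, the share of increases among calls went from 86.2% to 60.1% in cardiomyocytes, from 87.5% to 68.7% in fibroblasts, from 85.8% to 70.4% in endothelial cells, from 77.7% to 64.5% in pericytes and from 78.6% to 65.6% in macrophages.

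Few of the genes measured in at least 4 classes were called the same way in every class where they were measured. Among 1904 genes measured in at least 4 of the 5 classes, 56 were called higher in every class where they were measured (2.94%) and 12 were called lower (0.63%). By contrast, 1422 genes (74.7%) were called higher in no class and 257 (13.5%) in exactly 1. In all 5 classes 654 genes were measured, of which 11 were higher in every class and 1, the mitochondrial mt-Co1, was lower in every class. These counts depend on the gate and on depth: 8 increases and 6 decreases were left when a class had to lead the next by 4 times, and 12 and 2 when the expected count had to reach 30. The rule always needs a call in pericyte or macrophage nuclei, which held only 88551 and 45445 UMIs at homeostasis. Over the 3 deepest classes (cardiomyocyte, fibroblast and endothelial), an alternative chosen after seeing the data, 272 genes were called higher in all 3 and 35 lower.

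Free RNA in the suspension adds the same transcripts to every nucleus, so its size was estimated from the markers of other classes. After infarction it came to between 11.9% (cardiomyocyte and fibroblast nuclei) and 21.1% (pericyte nuclei) of the all-nuclei profile. At homeostasis it lay between 6.31% in fibroblast nuclei and 15.7% in cardiomyocyte nuclei. Of the 56 recurring increases, 19 were more than 2 times the free RNA estimate in every measured class, and the other 37 were not. At homeostasis the haemoglobin gene Hbb-bs also passed this criterion, at 3.95 times the estimate in its lowest class. So did mitochondrially coded genes such as mt-Co1 (3.63) and mt-Nd5 (4.04), whose transcripts likewise lie outside the nucleus. Passing the criterion thus does not clear a gene of free RNA, and its part in the 19 was not tested. Levels after infarction were highest in macrophage nuclei for 34 of the 56 increases and in fibroblast nuclei for 12. The same count over all 1904 genes is not given here.

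Col1a1, Fn1 and several myeloid genes were of the second kind. Col1a1, the main chain of type I collagen, went from 61.9 to 1267 CPM in fibroblast nuclei, a ratio of 20.5 (16.1 to 26.4). It also went from 4.52 to 106 CPM in cardiomyocyte nuclei, from 9.45 to 363 CPM in endothelial nuclei and from 0 UMIs to 382 CPM in pericyte nuclei. In cardiomyocyte nuclei the level after infarction was only 1.61 times the free RNA estimate. Fn1, which encodes fibronectin, was 1.17 times that estimate in its lowest class and Bgn, a matrix proteoglycan, 1.56 times.

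Adam8, Pik3ap1, Lgals3, Lilrb4b and Gpnmb, all myeloid genes, were below the estimate in cardiomyocyte nuclei, at multiples of 0.783, 0.543, 0.916, 0.545 and 0.758. Pik3ap1, an adaptor of PI3K signalling, had levels after infarction of 595 CPM in macrophage nuclei and 6.61 CPM in cardiomyocyte nuclei. The part of free RNA in the increases of these 5 genes was not tested beyond this comparison.

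The recurring increases above the free RNA estimate included Hspa5 and Ctsd. Hspa5 encodes BiP, the main chaperone of the endoplasmic reticulum and a standard target of the unfolded protein response. It went from 50.7 to 117 CPM in cardiomyocyte nuclei (ratio 2.32, 1.96 to 2.75), from 84.0 to 187 CPM in fibroblast nuclei (2.23, 1.80 to 2.78) and from 56.7 to 186 CPM in endothelial nuclei (3.28, 2.35 to 4.71). In pericyte nuclei it went from 45.2 to 198 CPM (4.38, 1.68 to 16.2) and in macrophage nuclei from 110 to 319 CPM (2.90, 1.24 to 8.94). Hspa5 was at least 5.04 times the free RNA estimate in every class.

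The lysosomal protease gene Ctsd went from 7.84 to 35.4 CPM in cardiomyocyte nuclei (4.51, 3.02 to 7.03), from 5.54 to 44.1 CPM in fibroblast nuclei (7.95, 3.62 to 21.8) and from 14.2 to 76.6 CPM in endothelial nuclei (5.40, 2.81 to 11.9). In macrophage nuclei it went from 1 UMI to 264 CPM (12, 2.15 to 474). Ctsb, Lgmn and Ftl1, 2 further lysosomal proteases and the ferritin light chain that stores iron, were higher in the same 4 classes, with ratios of 3.79 to 6.51, 2.42 to 10.5 and 3.57 to 7.85. For these 4 genes pericyte nuclei had too few counts to be measured. All 4 were highest in macrophage nuclei, and the lowest class held 13.4% of that level for Ctsd, 9.17% for Ctsb, 7.03% for Lgmn and 11.4% for Ftl1. The myeloid genes Lyz2 and Spp1 also passed the free RNA criterion, at 2.39 and 2.18 times the estimate in their lowest class. The 14 macrophage markers summed to 60.3 and 148 CPM in cardiomyocyte, 111 and 291 CPM in fibroblast (1 of 14 at 0 at homeostasis in each) and 104 and 442 CPM in endothelial nuclei. The part of macrophage RNA in these increases was not tested.

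The promoters of Hspa5 and Ctsd are printed because each holds a motif tied by name to the role of its gene. Sequences are from RefSeq, 250 bases upstream of the start in build GRCm38.p6, and 12 of the 14 recurring genes above the free RNA estimate that could be named had a promoter there. Capitals in Hspa5 mark the endoplasmic reticulum stress response element, CCAAT and CCACG with 9 bases between, which bases 65 to 47 before the start match. Capitals in Ctsd mark the E-box CACGTG, the core of the element bound by lysosomal gene regulators, found 2 times. Hspa5 lies at chr2:34771840-34772089 on the plus strand and Ctsd at chr7:142387828-142388077 on the minus strand.
Hspa5: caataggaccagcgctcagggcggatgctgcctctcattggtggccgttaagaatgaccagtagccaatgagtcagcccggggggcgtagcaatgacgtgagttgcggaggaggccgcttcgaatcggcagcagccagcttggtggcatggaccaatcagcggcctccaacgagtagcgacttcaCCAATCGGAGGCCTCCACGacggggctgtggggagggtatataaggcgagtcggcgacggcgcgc
Ctsd: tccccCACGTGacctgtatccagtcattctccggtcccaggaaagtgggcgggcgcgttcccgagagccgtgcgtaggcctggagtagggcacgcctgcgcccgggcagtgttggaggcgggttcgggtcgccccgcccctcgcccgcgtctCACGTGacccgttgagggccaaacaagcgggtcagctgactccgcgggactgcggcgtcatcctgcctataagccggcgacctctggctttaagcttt

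Both strands were searched for each motif. The 12 genes have 15 promoters in the table. The stress element was in 37 of 32851 promoters of this length (0.113%) and in 1 of the 15, that of Hspa5. The E-box was in 1978 promoters (6.02%) and in 3 of the 15, those of Ctsd and Cdk8 and 1 of the 2 of Lgmn, which opens no GENCODE transcript. An AP-1 site, TGANTCA, was in 6.75% of all promoters and in 1 of the 15, that of Hspa5. The antioxidant response core, TGACNNNGC, was in 10.2% of promoters and in 1 of the 15, that of Ctsd, 2 times. These matches describe the letters of the promoters only.

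Other recurring increases above the free RNA estimate were Myh9, Actn1, Des and Serpinh1. Myh9, the heavy chain of nonmuscle myosin, was higher in all 5 classes, from a ratio of 2.05 (1.45 to 2.98) in pericyte nuclei to 5.34 (4.43 to 6.50) in fibroblast nuclei. Actn1, an actin crosslinker, went from 33.2 to 420 CPM in fibroblast nuclei (12.6, 9.11 to 18.1), and its ratio in the other 3 measured classes was 2.12 to 3.48. Des, the intermediate filament of muscle, had ratios of 2.23 to 3.52 in 4 classes but 1.76 over all nuclei, which was not called. Serpinh1, the collagen chaperone, had ratios of 2.37 to 5.35 in 4 classes.

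The 4 abundant transcripts Cmss1, Camk1d, Cdk8 and Gm19951 had large increases in every class. Cmss1, a gene of ribosomal RNA processing, went from 1329 to 16250 CPM over all nuclei (12.2, 12 to 12.5), with ratios of 7.12 in cardiomyocyte, 12 in fibroblast, 10.9 in endothelial, 12.9 in pericyte and 9.97 in macrophage nuclei. Camk1d, a calcium-dependent kinase gene, went from 252 to 2388 CPM (9.49) and Cdk8, a kinase of the Mediator complex, from 279 to 2199 CPM (7.88). The unnamed gene model Gm19951 went from 53.8 to 744 CPM (13.8). Gphn, the scaffold of inhibitory synapses and likewise abundant, was at 4908 and 4910 CPM (1) over all nuclei, with ratios of 0.612 in pericyte to 0.867 in cardiomyocyte nuclei. In Q150X the ratio of Gphn was 3.10 (3.05 to 3.15) over all nuclei and 1.96 in cardiomyocyte to 3.63 in macrophage nuclei. Whether the reads counted at Cmss1, Camk1d, Cdk8 and Gm19951 come from transcripts of those genes cannot be checked from a count table, so these ratios describe counts assigned to them.

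The 12 recurring decreases were mostly of mitochondrially coded genes, which gave 9 of them. Among these mt-Nd4l, a subunit of respiratory complex I, went from 1025 to 83.2 CPM (0.0811) over all nuclei and from 614 to 39.7 CPM in cardiomyocyte nuclei. The haemoglobin gene Hbb-bs, whose transcripts come from blood, went from 473 to 25.4 CPM (0.0538) over all nuclei. Dgkb, a diacylglycerol kinase gene, had ratios of 0.125 (0.0986 to 0.158) in cardiomyocyte, 0.227 in fibroblast, 0.204 in endothelial and 0.436 in pericyte nuclei. Lsamp, a cell adhesion gene of resting fibroblasts and pericytes, had ratios of 0.318, 0.211, 0.333 and 0.481 in the same order, but in cardiomyocyte nuclei its homeostasis level was only 0.988 times the free RNA estimate.

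**Figure D4:**
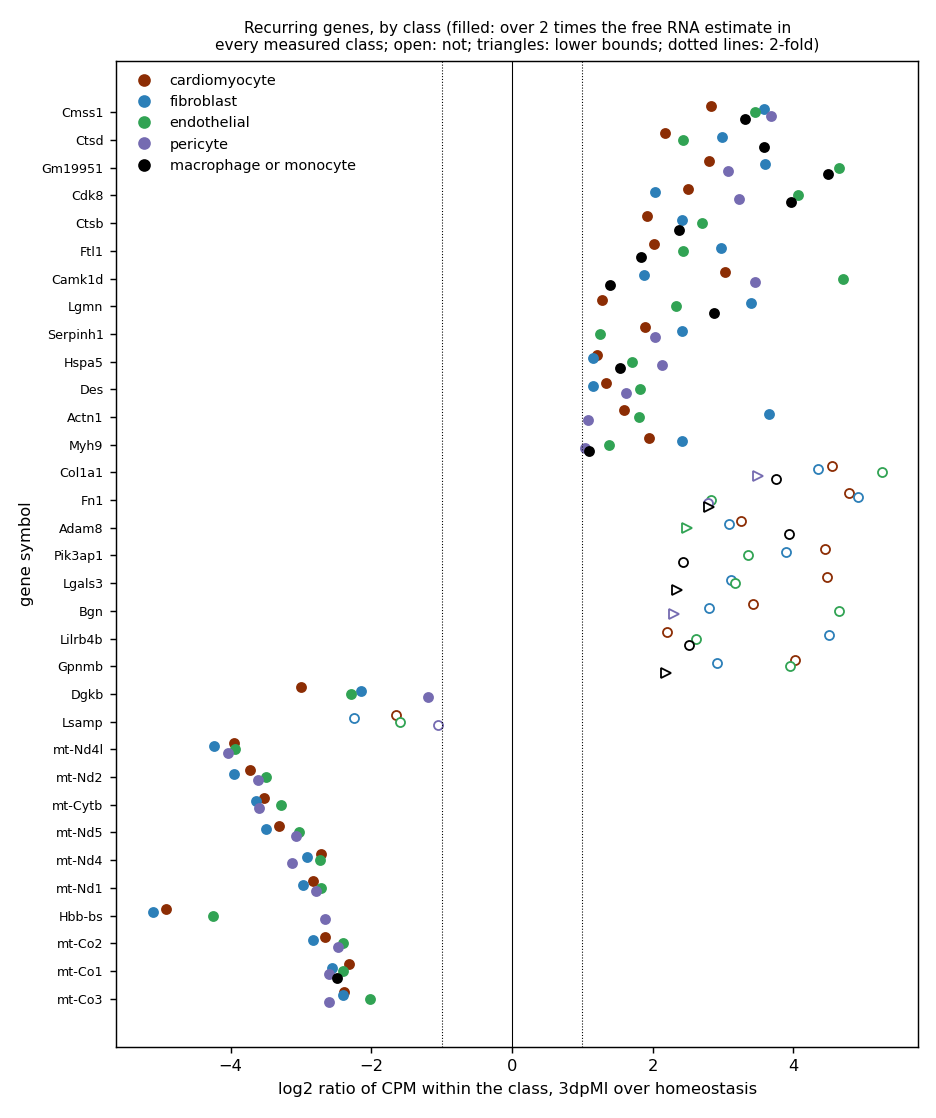
Log2 ratio of CPM within each class, WT 3dpMI over WT homeostasis (horizontal axis), for recurring genes named in the text and recurring mitochondrially coded genes, with 1 point per class where the gene was measured. Filled points are genes more than 2 times the free RNA estimate in every measured class, open points are not, triangles are lower bounds for 0 UMIs at homeostasis, and dotted lines mark 2-fold. Cmss1 lies between log2 2.83 and 3.69 in the 5 classes.

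Some changes sat in 1 class. A gene was counted there when it was called in that class alone and its interval in every other measured class, at least 3, stayed inside 2-fold on that side. Over the 5 classes 138 genes met this, but 46 with an expected count of 30 and 56 with a gate margin of 4. In cardiomyocyte nuclei 13 of 1904 genes met this for an increase (0.683%) and 6 for a decrease (0.315%). Zfp608, a zinc finger gene, went from 54.6 to 240 CPM in cardiomyocyte nuclei (4.40, 3.78 to 5.16), against ratios of 1.22, 0.898 and 0.982 in fibroblast, endothelial and pericyte nuclei. Raph1, which links Ras signals to actin, had a ratio of 3.13 (2.94 to 3.34) and Hip1, an endocytic adaptor, 3.26 (2.74 to 3.90). Robo1, a guidance receptor gene, went from 29.3 to 8.21 CPM (0.281, 0.202 to 0.387). Jph2, which ties the calcium store to the cell membrane, went from 1046 to 504 CPM (0.482, 0.461 to 0.504), and Hdac4, a histone deacetylase that represses growth genes, from 582 to 286 CPM (0.491, 0.462 to 0.522).

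In fibroblast nuclei 13 genes met the rule for an increase (0.683%) and 9 for a decrease (0.473%). The transcription factor gene Foxp1 went from 555 to 1868 CPM (3.37, 3.10 to 3.66), against ratios between 0.640 and 1.10 in the other classes. Tln2, which couples integrins to actin, had a ratio of 2.82 (2.50 to 3.20) and the adaptor gene Apbb2 2.37 (2.12 to 2.66). Decreases included Prex2, a Rac activator gene, from 1208 to 419 CPM (0.347), the calcium sensor gene Stim1, from 391 to 144 CPM (0.369), and the clock receptor gene Rora, from 6579 to 2869 CPM (0.436). Rora was not measured in macrophage nuclei under the count filter, and its ratio there was lower still, at 0.278 (0.190 to 0.422).

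In endothelial nuclei 6 genes met it for an increase (0.315%) and 10 for a decrease (0.525%). Zfp521 had a ratio of 2.32 (2.02 to 2.69), Sipa1l3 of 2.08 (1.58 to 2.81), and Zeb2, a repressor known from epithelial to mesenchymal transition, of 2.02 (1.66 to 2.49). Zeb2 was highest in macrophage nuclei (4559 CPM after infarction) and went from 401 to 1301 CPM over all nuclei. In cardiomyocyte, fibroblast and pericyte nuclei its ratios were 1.71 (1.54 to 1.90), 1.52 (1.43 to 1.63) and 1.58 (1.295 to 1.94), short of a call. In Q150X the endothelial ratio of Zeb2 was 1.52 (1.31 to 1.78), also short of a call, against 1.80 in fibroblast and 1.86 in macrophage nuclei. Zfp521 (1.62, 1.46 to 1.81) and Sipa1l3 (1.51, 1.21 to 1.90) were short of a call in Q150X endothelial nuclei too. Macrophage markers in endothelial nuclei summed to 104 CPM at homeostasis (3 of 14 at 0) and 442 CPM after infarction (none at 0), and the part of macrophage RNA in the Zeb2 increase was not tested. Plxdc2 went from 132 to 41.9 CPM (0.317), Pde3a, a phosphodiesterase gene, from 495 to 194 CPM (0.392), and the receptor gene Ror1 from 189 to 78.4 CPM (0.415). These 3 genes had ratios above 0.50 in cardiomyocyte, fibroblast and pericyte nuclei. In macrophage nuclei they fell short of the count filter and so did not enter the rule, but their ratios there were 0.344 (0.220 to 0.568) for Plxdc2, 0.269 (0.147 to 0.547) for Pde3a and 0.178 (0.115 to 0.289) for Ror1.

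In the 2 smaller classes the counts are thin. Pericyte nuclei had 26 of 1666 genes with an increase (1.56%) and 11 with a decrease (0.66%). The kinase gene Stk39 went from 395 to 802 CPM (2.03, 1.44 to 2.94) and Nrd1 from 45.2 to 178 CPM (3.95, 1.51 to 14.7). Mecom, a transcription factor gene known from endothelium, went from 508 to 136 CPM (0.267, 0.188 to 0.385), Setbp1 from 350 to 114 CPM (0.325) and Galnt18 from 621 to 278 CPM (0.448). In macrophage nuclei, where these genes fell short of the count filter, Mecom had a ratio of 0.524 (0.329 to 0.889) and Galnt18 of 0.376 (0.201 to 0.793).

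Macrophage nuclei had 25 of 892 genes with an increase (2.8%) and 19 with a decrease (2.13%). Plcb1, a phospholipase of receptor signalling, went from 2 UMIs (44.0 CPM) to 419 CPM (9.52, 2.63 to 78.7), Sash1 from 264 to 901 CPM (3.41, 1.95 to 6.61) and Myo1e, a membrane-linked myosin, from 154 to 579 CPM (3.76, 1.82 to 9.37). Man2a1, an enzyme of glycan processing, went from 1980 to 466 CPM (0.235, 0.190 to 0.294), Tns1 from 1232 to 370 CPM (0.3) and Dlc1 from 1100 to 328 CPM (0.298). Dlc1 was lower in the other classes too, short of a call, at 0.558 in endothelial, 0.741 in pericyte, 0.774 in fibroblast and 0.783 in cardiomyocyte nuclei. In Q150X its ratio was 0.38 in cardiomyocyte and 0.41 in endothelial nuclei. Man2a1 had ratios of 0.583 (0.547 to 0.623) in cardiomyocyte, 0.770 in pericyte, 0.971 in fibroblast and 1.03 in endothelial nuclei. The homeostasis side of the macrophage values rests on 60 nuclei with 45445 UMIs. In these nuclei 2 of 6 B-cell markers were detected and summed to 704 CPM, against 107 CPM and 5 of 6 after infarction. The part of B-cell RNA in the macrophage values was not tested.

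Gene lists for known programmes were read by counts and medians against the same figures for all measured genes of the class. The shares called higher and lower over all genes were 29.6% and 3.84% for all nuclei, 17.6% and 2.8% in cardiomyocyte, 21.1% and 3.03% in fibroblast, 13.5% and 2.25% in endothelial and 17.9% and 4.87% in macrophage nuclei. A list median takes a gene with 0 UMIs at homeostasis at its lower bound.

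In cardiomyocyte nuclei 18 of 19 measured stress and fetal genes were called higher and none lower, with a median log2 ratio of 1.79 against 0.39 for all genes. Nppa, which encodes atrial natriuretic peptide, went from 2.71 to 76.1 CPM (28.0, 14.7 to 61.6), and Nppb, its ventricular relative, from 10.3 to 115 CPM (11.2, 8 to 16.4). Ankrd1, a stretch-responsive titin-binding protein gene, went from 63.6 to 809 CPM (12.7, 11.1 to 14.7). The exception was Xirp1 with a ratio of 1.96 (1.59 to 2.43). Of 12 measured in endothelial nuclei 9 were higher and 1, the small chaperone gene Hspb1, was lower (0.378). Cardiomyocyte markers in endothelial nuclei summed to 2532 CPM at homeostasis and 3546 CPM after infarction, with all 12 detected in both, and the part of cardiomyocyte RNA in that count was not tested.

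Contractile genes within cardiomyocyte nuclei mostly stayed inside 2-fold. Of 21 sarcomere genes 5 were higher and none lower, with a median of 0.50, near the 17.6% called higher and the median of 0.39 over all genes. Actc1, cardiac actin, went from 77.5 to 299 CPM (3.86, 3.40 to 4.41), Tcap from 35.3 to 123 CPM (3.48, 2.87 to 4.25) and Tpm1 from 306 to 982 CPM (3.21, 3.01 to 3.43), while Neb had a ratio of 0.562 (0.456 to 0.696). Over all nuclei the same list had 1 gene higher and 3 lower, with a median of -0.37. Of 18 calcium handling and conduction genes in cardiomyocyte nuclei, Kcnq1 (3.02, 2.81 to 3.26) and Kcnh2 (2.75, 2.12 to 3.62), both potassium channel genes, were higher and Jph2 was lower.

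Among energy genes, a pair of regulators was lower in cardiomyocyte nuclei and most enzyme genes stayed inside 2-fold. Of 26 genes of fatty acid uptake and oxidation, 6 were lower over all nuclei, and 2 within cardiomyocyte nuclei, where the median of the list was 0.36 against 0.39 for all genes. Ppargc1a went from 2884 to 896 CPM (0.311, 0.301 to 0.320) and Ppara, the nuclear receptor of fat oxidation, from 677 to 319 CPM (0.471, 0.445 to 0.499). The enzyme genes Cpt1a (2.76, 2.32 to 3.31) and Decr1 (2.41, 1.87 to 3.15) were higher. Of 26 nuclear-coded genes of oxidative phosphorylation, 9 were higher within cardiomyocyte nuclei, led by Cox6a2 from 14.5 to 52.6 CPM (3.63, 2.69 to 5), and none was lower. In Q150X cardiomyocyte nuclei none of the 26 was higher and 1 was lower, with a list median of -0.19 against 0.68 in wild type.

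In wild type the 13 mitochondrially coded genes of the same enzyme complexes went the other way. All 13 were lower in cardiomyocyte, fibroblast and endothelial nuclei, with medians of -2.83, -2.98 and -2.72. All 9 that could be measured in pericyte nuclei were lower as well. The 4 measured erythroid genes were also lower in these 3 classes, with a median of -4.04 over all nuclei. Both kinds of transcript lie outside the nucleus, and the part of suspension quality in these decreases was not tested.

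In fibroblast nuclei 15 of 21 matricellular and activated fibroblast genes were higher and none lower, with a median log2 ratio of 3.84 against 0.33 for all genes. Kif26b, a kinesin gene, had 2 UMIs (1.85 CPM) at homeostasis and 1493 CPM after infarction, a ratio of 809 (224 to 6677). Tnc went from 5.54 to 1195 CPM (216, 99.1 to 588). Acta2, the actin of myofibroblasts, went from 1 UMI to 52.3 CPM (56.6, 10.1 to 2241). Postn (25.5) and Runx1 (40.2), a secreted scar protein gene and a transcription factor gene, were also higher. At the other end Tgfb1 (0.858) and Fap (0.956) were within 2-fold.

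Matrix genes in fibroblast nuclei did not move as 1 block. Of 27, 13 were higher and 1 lower. Fn1 went from 29.5 to 894 CPM (30.3, 21.4 to 44.3) and Lox, which crosslinks collagen, from 5.54 to 122 CPM (22.0, 10.1 to 60.1). Eln, which encodes elastin, went from 419 to 110 CPM (0.263, 0.234 to 0.294), and the basement membrane gene Nid1 from 646 to 337 CPM (0.521, 0.480 to 0.567), short of a call. Of 16 resting fibroblast genes 4 were lower and 2 higher, with a median of -0.72. Lsamp went from 914 to 193 CPM (0.211) and Negr1, another adhesion gene, from 1110 to 306 CPM (0.275, 0.257 to 0.295), while Mgp, an inhibitor of calcification, went from 62.8 to 135 CPM (2.15, 1.69 to 2.79).

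Division genes were higher in fibroblast and endothelial nuclei. Over all nuclei 26 of 26 proliferation genes were higher, with a median of 3.72. In fibroblast nuclei 23 of 24 were higher (median 3.40) and in endothelial nuclei 16 of 17 (median 2.68). Top2a, a topoisomerase of dividing cells, went from 3 UMIs to 86.7 CPM in fibroblast nuclei (31.3, 10.7 to 152) and from 3 UMIs to 66.9 CPM in endothelial nuclei (14.2, 4.80 to 69.0). In cardiomyocyte nuclei 6 of the 26 were measured (median 0.58 against 0.39 for all genes) and 2 were higher. These were Mki67 from 2.41 to 9.92 CPM (4.11, 1.99 to 9.85) and Diaph3 from 4.22 to 10.0 CPM (2.38, 1.34 to 4.54). The part of free RNA in these low cardiomyocyte levels was not tested.

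In endothelial nuclei part of the activation genes were higher and part of the capillary genes lower. Of 16 activation and tip-cell genes 9 were higher and none lower (median 1.19 against 0.23). Selp, the P-selectin that slows leukocytes, went from 1 UMI to 98.1 CPM (62.2, 11.1 to 2464), and Plvap, which forms the diaphragms of leaky vessels, from 2 UMIs to 69.8 CPM (22.1, 6.08 to 184). Apln, a peptide gene of sprouting tips, went from 1 UMI to 23.3 CPM (14.8, 2.60 to 590).

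Of 16 heart capillary genes 8 were lower and none higher (median -0.95). Timp4 went from 176 to 55.3 CPM (0.314, 0.251 to 0.395), and Aqp7, the glycerol channel, from 142 to 47.3 CPM (0.333, 0.260 to 0.430). The fatty acid carriers Cd36 (0.369) and Fabp4 (0.417) and the lipase Lpl (0.482) were lower too. Kdr, the main VEGF receptor and one of the gating markers, had a ratio of 0.827 (0.737 to 0.931).

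Inflammatory genes were almost all higher over the whole suspension. Of 18 chemokine and cytokine genes 17 were higher (median 3.90). Il1b went from 1 UMI to 9.97 CPM (58.5, 10.4 to 2319) and Ccl2, the monocyte attractant, from 1.36 to 42.9 CPM (31.5, 15.9 to 73.1), while Cxcl12 had a ratio of 1.31 (1.18 to 1.45). Of 15 recruited monocyte and repair macrophage genes 14 were higher (median 4.79).

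Resident macrophage genes showed how the mix and the level can part. Over all nuclei 11 of 13 were higher, with a median of 1.99. Within macrophage nuclei 1 of 6 was higher and none lower, with a median of -0.39. F13a1, a coagulation factor gene of tissue macrophages and a gating marker, went from 97.1 to 542 CPM over all nuclei (5.58, 5.13 to 6.08) and from 7174 to 3972 CPM within macrophage nuclei (0.554, 0.496 to 0.620). Mrc1, the mannose receptor and also a gating marker, had a ratio of 5.39 over all nuclei and 0.653 (0.557 to 0.771) within them. Mertk, a receptor for the uptake of dead cells, was higher within them (2.29, 1.45 to 3.88).

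Stress and growth lists differed in how many members were called. Of the heat shock and unfolded protein genes, 10 of 14 were higher in cardiomyocyte nuclei (median 1.25), 8 of 14 in fibroblast nuclei (1.27) and 4 of 11 in endothelial nuclei (0.69). The chaperone gene Hsp90b1 of the endoplasmic reticulum went from 38 to 218 CPM in cardiomyocyte nuclei (5.74, 4.79 to 6.93), whereas its cytosolic relative Hsp90aa1 had a ratio of 1.05 (0.787 to 1.41) there and Hsph1 of 0.927 (0.650 to 1.34). The 4 members that were not called in cardiomyocyte nuclei, Hsph1, Hsp90aa1, Dnajb1 (0.972) and Hspa8 (1.90), are all chaperones of the cytosol. All 21 cytosolic ribosomal protein genes were higher over all nuclei (median 1.97), from Rps24 (2.18, 1.88 to 2.53) to Rpl3 (8.69, 6.33 to 12.3). Of 19 ribosome biogenesis genes 13 were higher in fibroblast nuclei (median 1.28) and 7 in cardiomyocyte nuclei, where the list median of 0.49 lay near the 0.39 of all genes.

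Signalling targets were less even. Of 22 immediate early genes 14 were higher and 1 lower over all nuclei (median 1.31). Fosb went from 3 UMIs to 18.1 CPM (35.3, 12 to 172) and Fos from 1.36 to 34.2 CPM (25.1, 12.7 to 58.2), while Nr4a3 had a ratio of 0.415 (0.297 to 0.587) and Klf4, a factor of quiescent endothelium, had one of 0.404 (0.315 to 0.522) in endothelial nuclei. Socs3, a feedback target of STAT3, went from 0.682 to 18.7 CPM (27.4, 10.7 to 101), and 9 of 14 JAK-STAT3 genes were higher over all nuclei. Of 14 NF-kappa-B target genes 10 were higher.

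Interferon-stimulated genes differed by class. Over all nuclei 13 of 20 were higher (median 1.44), in cardiomyocyte nuclei 6 of 8 (1.32) and in fibroblast nuclei 8 of 16 (1.01), but in endothelial nuclei 1 of 15 (0.04 against 0.23 for all genes). Mx1 went from 1.53 to 21.4 CPM over all nuclei (14.0, 7.31 to 30.7). In endothelial nuclei Rsad2 had a ratio of 0.626 (0.465 to 0.856) and Usp18 was the gene called higher (2.15, 1.06 to 5.08). The difference between classes was not tested.

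Oxygen and clock genes went in both directions. Of 22 hypoxia and glycolysis genes 11 were higher and 4 lower over all nuclei. Slc2a1, a glucose transporter, went from 4.6 to 27.1 CPM (5.88, 4.01 to 8.98) and Eno1 from 11.4 to 51.8 CPM (4.54, 3.56 to 5.89). Bnip3 (0.314, 0.286 to 0.344) and Egln3 (0.424, 0.359 to 0.504) were lower. Vegfa, the vessel growth factor, went from 427 to 203 CPM over all nuclei (0.476, 0.454 to 0.499) but had a ratio of 0.820 in cardiomyocyte nuclei and 1.37 in fibroblast nuclei. In cardiomyocyte nuclei 5 of 18 clock genes were higher and 3 lower, with Dbp at 6.38 (4.11 to 10.4) and Arntl, its activator, at 0.221 (0.171 to 0.283). No source used here gives the time of day at which tissue was taken.

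Lists that moved mostly 1 way included those of actin and p53. Of 22 actin and mechanosensing genes 15 were higher over all nuclei and none lower, and Ccn2, a target of stretch and YAP signals, went from 29.5 to 294 CPM in fibroblast nuclei (9.94, 7.02 to 14.6) and from 7.24 to 68.4 CPM in cardiomyocyte nuclei (9.44, 6.28 to 14.9). Of 17 p53 targets 10 were higher over all nuclei, with Mdm2 from 21.5 to 104 CPM (4.86, 4.07 to 5.86). Of 17 glucocorticoid-induced genes 6 were higher, near the 29.6% of all genes, and 3 lower against 3.84%, and their median of 0.49 was below the 0.57 of all genes. The metallothionein gene Mt2 had 0 UMIs and then 14.1 CPM, at least 27.6-fold higher, while Pdk4, a kinase that spares glucose, went from 76.0 to 31.4 CPM (0.413, 0.369 to 0.464).

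**Figure D5:**
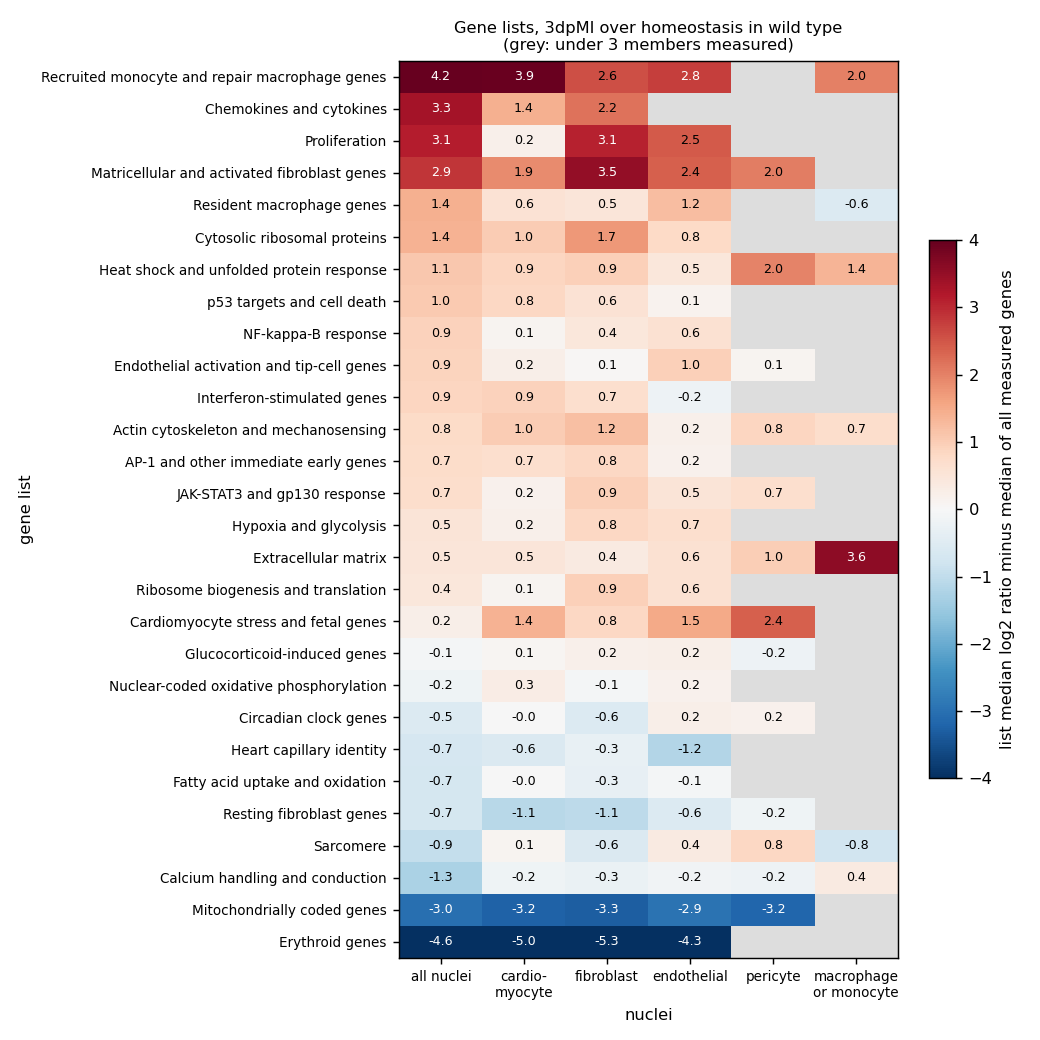
Median log2 ratio of each of 28 gene lists minus the median of all measured genes, for all nuclei and for each class (columns), with red above and blue below the median gene and grey where under 3 members were measured. Proliferation genes stand at 3.07 in fibroblast and 2.45 in endothelial nuclei but 0.19 in cardiomyocyte nuclei, and heart capillary genes at -1.18 in endothelial nuclei.

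The Q150X pair gives a second reading of the same contrast. Of the 4388 increases over all nuclei, 4381 were measured there, and 3091 (70.6%) were also called higher and 14 lower, where 26.0% of all genes measured in Q150X were called higher. Of 554 decreases 493 (89.0%) were also called lower and none higher, against a background of 9.12%. Among recurring genes, 44 of 55 increases and 11 of 12 decreases were called the same way in every class measured in Q150X, where single classes called 10.8% to 21.3% of all measured genes higher and 3.58% to 6.55% lower.

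For genes whose change sat in 1 class in wild type, the lookup in Q150X asked only for the same call in that class, not that the change sit there alone. That call was met for 11 of 19 in cardiomyocyte, 19 of 22 in fibroblast, 9 of 15 in endothelial and 19 of 44 in macrophage nuclei. None of 37 did in pericyte nuclei, the class with 88551 UMIs at homeostasis in wild type. Among the endothelial increases only Tbc1d14 met that call. Shares of all measured genes called higher and lower in Q150X were 15.4% and 6.55% in cardiomyocyte, 21.3% and 5.90% in fibroblast, 17.2% and 4.91% in endothelial, 10.8% and 3.58% in pericyte and 17.5% and 5.74% in macrophage nuclei. Rora, for example, was lower in Q150X in fibroblast nuclei (0.269) and also in cardiomyocyte (0.363), endothelial (0.361), pericyte (0.497) and macrophage nuclei (0.104). Class shares moved alike for cardiomyocytes (0.367 in Q150X) and macrophages (5.40), and apart for pericytes, at 1.92 (1.56 to 2.37) in wild type and 0.245 (0.207 to 0.292) in Q150X. These differences between genotypes were not tested.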

How the data were processed

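Nuclei from 4 mouse heart libraries were captured with the 10x Genomics 5′ kit, version 2, per the labels' protocols. The authors deposited raw UMI counts per gene and barcode for 33954 genes, made with Cell Ranger 7.1.0 on GRCm39, per the submitters' processing notes, which also name Scanpy without a version. Neither the notes nor the labels say whether strand was used. Every deposited barcode had at least 500 UMIs. Filters at 300 genes and 10% mitochondrial UMIs removed 9 of 4390 and 8 of 9157 wild-type barcodes.

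Counts were summed per library and class and expressed as CPM. Ratios carry exact conditional binomial 95% intervals, levels Poisson intervals and shares Clopper-Pearson intervals, all for counting error only. UMIs of 1 nucleus are not independent, so these intervals are too narrow. A gene was measured when its expected count under equal CPM reached 10 in each library, and called when its ratio was at least 2 or at most 0.5 with the interval on that side of 1. A count of 0 was set to a floor of 3 counts in that library, and the ratio given as a lower bound.

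A nucleus entered a class when that class had a relative marker share of at least 0.2, at least 2 different markers and 2 times the share of the next class. Clusters made with Scanpy held 91.7% to 99% of the gated nuclei of each main class under the same name. Nuclei with a doublet score above threshold were kept here and left out in an alternative: 214 (4.88%) at homeostasis by the automatic threshold, and the top 670 (7.32%) after infarction, where that threshold marked 0% and a rate of 0.8% per 1000 nuclei was used.

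Genes over all nuclei (10 in each direction) and genes in 1 class (3 per class and direction) were named by rank of the interval bound nearest to 1. Recurring genes, up to 10 in each direction, were ranked by their smallest absolute log2 ratio over the measured classes. Lists gave up to 2 measured members at each end. Mitochondrial, ribosomal, haemoglobin, sex-linked and marker genes and models without a symbol were outside those ranks. Any gene named beyond them, including abundant transcripts, promoter genes and further list members, was chosen after its values were seen. Some genes that these ranks select are not reported here. The members and lists were chosen with earlier results of these data known. Sums and intervals were computed with scipy 1.17.1, numpy 2.4.6 and pandas 2.3.3 under Python 3.11.15, clusters with Scanpy 1.11.5 and scikit-learn 1.9.0, and figures with matplotlib 3.10.9. The calls were also run on simulated counts with known fold changes. Those counts held counting error alone, so the run cannot speak to variation between nuclei or libraries.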

Additional observations from a re-analysis of the deposited data

Results flagged for a closer look

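Several values differed in direction between classes or between the wild-type and Q150X pairs, and none of these differences was tested. Fkbp5, a chaperone gene induced by glucocorticoids, had a log2 ratio of 1.47 in pericyte nuclei and -1.23 in macrophage nuclei, a difference of 2.69. The share ratio of pericyte nuclei was 1.92 in wild type and 0.245 in Q150X. Over all nuclei the cardiac actin gene Actc1 had a ratio of 2.33 in wild type and 0.493 in Q150X, a log2 difference of 2.24. Cox6a2, a muscle subunit of cytochrome oxidase, had ratios of 2.13 and 0.239, a log2 difference of 3.16.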

How the results depend on the processing

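No paired analysis was possible because each condition has 1 library and the comparison comes from no test. The main limits are that library and condition cannot be told apart, that depth per nucleus differed, and that small classes hold few UMIs. About 1.70 CPM was needed to measure a gene over all nuclei, 113 in pericyte and 220 in macrophage nuclei. Leaving out doublets or lowering the mitochondrial maximum to 5% moved none of the main counts, shares and list medians past their limits.

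With at least 1000 UMIs per nucleus the share ratio was 1.43 for fibroblasts, which reversed it, 0.249 for cardiomyocytes and 2.26 for endothelial nuclei. Increases were then 700 in endothelial and 1306 in fibroblast nuclei, and medians -1.26 for capillary genes in endothelial nuclei, 3.06 for matricellular genes in fibroblast nuclei and -2.14 for mitochondrially coded genes. Recurring genes were not computed there, since only 3 classes remained. With nuclei gated at 500 UMIs each, the fibroblast share ratio was 0.904.

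Centred on the median gene, all nuclei had 2181 increases and 1496 decreases, cardiomyocytes 948 and 630, and endothelial nuclei 703 and 296, with 642 decreases in fibroblasts and 37 recurring increases. Centred medians over all nuclei were 1.40 for ribosomal and -3.01 for mitochondrially coded genes, and those of glucocorticoid (-0.0787) and nuclear-coded oxidative phosphorylation genes (-0.18) reversed, as did clock (-0.0173), fatty acid (-0.0305) and calcium genes (-0.18) in cardiomyocytes.

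With an expected count of 30, increases were 1010 in cardiomyocyte, 960 in fibroblast, 352 in endothelial, 18 in pericyte and 36 in macrophage nuclei. Decreases were 353 over all nuclei and 136, 172, 89, 10 and 9 in those classes. Recurring increases were 12, of which 7 were above free RNA, recurring decreases 2, and genes in 1 class 46 in place of 138. Without a count filter, decreases were 965 over all nuclei and 603, 624, 465, 238 and 422 in those classes. Pericyte increases were 213, recurring genes 33 higher and 24 lower, and the matricellular median in fibroblasts 3.02.

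With a gate margin of 4, pericytes had 42 increases and 23 decreases, recurring increases were 8 (4 above free RNA), recurring decreases 6 and genes in 1 class 56, and the endothelial share ratio was 1.60. With Leiden clusters, pericytes had 247 increases, the share ratios of cardiomyocytes, fibroblasts and endothelial cells were 0.377, 0.616 and 2.09, and resting fibroblast genes in cardiomyocytes reversed to 0.11. With nuclei weighted equally, fibroblast decreases were 186, and medians -0.40 for capillary genes in endothelial nuclei and -2.10 for mitochondrially coded genes. Totals without mitochondrial and the 20 most abundant genes gave -2.64 for the latter and 87 pericyte increases. Over the 3 deepest classes, an alternative chosen after seeing the data, 272 genes recurred higher (164 above free RNA) and 35 lower. The cause of these shifts was not tested.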

Other observations

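Of the 1904 genes measured in at least 4 classes, 19 were called higher in at least 1 class and lower in another. Sntb1, a partner of dystrophin, had log2 ratios of 1.16 in cardiomyocyte, -2.12 in endothelial and -1.07 in pericyte nuclei. Ank3, which anchors membrane proteins, had 1.75 in fibroblast and -1.09 in pericyte nuclei, and Myo10, the myosin of filopodia, 1.42 in fibroblast and -1.06 in endothelial nuclei. Mctp1 had 1.59 in endothelial and -2.31 in macrophage nuclei, and Entpd1, which breaks down extracellular ATP, 1.59 and -1.11 in the same classes. Bcl2, an inhibitor of cell death, had 1.16 in cardiomyocyte and -1.02 in macrophage nuclei.

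Ratios also varied with gene span. Over all nuclei the median log2 ratio was 1.09 for 3057 genes under 10 kb, 0.66 for 4566 genes of 10 to 30 kb, 0.42 for 4072 genes of 30 to 100 kb and 0.16 for 2169 genes over 100 kb, in the 93.5% of measured genes with a span. In the Q150X pair the same medians were 0.84, 0.51, 0.31 and -0.02. The part of span in the gene list values was not tested.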
